A study of Rattus norvegicus with 10 samples.

Results

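Peroxisome proliferator-activated receptor alpha (Ppara), its partner retinoid X receptor alpha (Rxra) and 8 genes known as targets that the receptor switches on in the fasting liver were examined in rats fed an iron-deficient diet. The 8 targets were Vnn1, Cd36, Cpt1a, Pdk4, Angptl4, Fabp1, Acsl1 and Creb3l3. Every probe set that the platform annotation pairs with 1 of these 10 genes and with no other gene was taken, which gave 14 probe sets of 31042 tested, or 10 genes of 14217 with a probe set. Cpt1a and Pdk4 had 2 probe sets each, Acsl1 had 3, and the remaining 7 genes had 1.

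Liver RNA from 10 male Sprague-Dawley rats, 5 weeks old by the labels, was hybridized to 1 Affymetrix array of the whole rat genome per rat. The iron-deficient group (n = 5) ate a diet with about 3 ppm iron for 3 days. The pair-fed group (n = 5) received the control diet with 48 ppm iron in matched amounts. Both groups had been trained to eat in a daytime window, with food removed for the night. The livers were excised 1.5 h after feeding, so the fasting-induced genes were read soon after a meal that followed hours without food. For the pair-fed samples the source field names the iron-deficient diet, while title and treatment name the control diet, and the latter were followed.

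PPAR-alpha is a nuclear receptor that is activated by fatty acids. It binds DNA as a heterodimer with a retinoid X receptor at response elements built from a pair of half-sites, and in the liver it is known for inducing fatty acid uptake, oxidation and ketone body production when food is withdrawn. Among its targets, Cd36 is a fatty acid transporter of the cell surface, Fabp1 carries fatty acids within hepatocytes and Acsl1 joins them to coenzyme A. Cpt1a transfers them to carnitine for entry into mitochondria, and Pdk4 restrains the use of glucose by inactivating pyruvate dehydrogenase. Angptl4 is secreted and inhibits lipoprotein lipase, Vnn1 is a pantetheinase that releases cysteamine, and Creb3l3 is a membrane-bound transcription factor that acts together with PPAR-alpha.

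The response element of PPAR-alpha is usually given as AGGTCANAGGTCA, 2 copies of the half-site AGGTCA with 1 base between them. The 250 bases before the transcription start were searched for it on both strands in the RefSeq promoters of the rat assembly GRCr8, counting how many of the 12 fixed letters matched at the best position. Promoters were matched for 9 of the 10 genes, all but Vnn1. Fabp1 matched 11 of 12 letters, a score that 0.386% of all 27457 promoters reach. Creb3l3 matched 10, a score reached by 3.11%. The others matched 7 or 8, which 99.6% and 73.6% of all promoters reach. The half-site on its own was found in 2 of the 9 promoters, and 13.7% of all promoters hold it. A match is a description of the letters and not a bound site, and elements farther from the start lie outside this window.

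The sequences before the start are shown for Fabp1, which holds the closest match and whose signal was nearly the same in all rats, and for Cpt1a and Cd36, whose differences between the diets were the most negative after Vnn1. For Creb3l3, with the next closest match, only the match and 8 bases on either side are shown. The 250-base windows lie on the plus strand of GRCr8, at chr4:104749090-104749339 (Fabp1), chr1:209995910-209996159 (Cpt1a), chr4:18246332-18246581 (Cd36) and chr7:9273070-9273319 (Creb3l3). Capitals mark the best match to the element, on the reverse strand in Fabp1 and Cd36 and on the forward strand in Cpt1a and Creb3l3.

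Fabp1: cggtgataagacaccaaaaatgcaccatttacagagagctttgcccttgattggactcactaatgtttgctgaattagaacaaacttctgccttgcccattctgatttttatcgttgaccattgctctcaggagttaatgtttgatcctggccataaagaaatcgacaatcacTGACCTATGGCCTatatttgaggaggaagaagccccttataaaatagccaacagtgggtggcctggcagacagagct

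Cpt1a: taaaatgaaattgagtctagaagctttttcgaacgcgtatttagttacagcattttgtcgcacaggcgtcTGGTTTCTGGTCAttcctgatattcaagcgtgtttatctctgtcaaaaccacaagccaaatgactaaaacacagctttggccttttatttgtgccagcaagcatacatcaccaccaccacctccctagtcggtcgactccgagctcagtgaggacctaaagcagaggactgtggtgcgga

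Cd36: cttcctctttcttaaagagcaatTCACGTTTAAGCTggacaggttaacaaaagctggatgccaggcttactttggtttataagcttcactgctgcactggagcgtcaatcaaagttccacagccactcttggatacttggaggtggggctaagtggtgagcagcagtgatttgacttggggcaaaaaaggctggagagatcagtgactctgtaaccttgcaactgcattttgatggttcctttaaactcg

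Creb3l3: ctgtaagtAGGGGAGAGGTCAcacagact

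Vnn1 was down-regulated in iron-deficient livers, and the other 13 probe sets did not pass the test. Cd36 and Cpt1a had lower means without passing, and the receptor pair Ppara and Rxra had slightly higher means. Pdk4, Angptl4, Fabp1, Acsl1 and Creb3l3 had mean log2 differences from -0.04 to 0.14. The test is the rank products method at a false discovery rate (FDR) under 0.05 over all probe sets, and log2 differences are iron-deficient minus pair-fed means. It called 1 of the 14 probe sets lower, where 0.554% of all probe sets were called lower, and 0 of the 14 higher, where 0.283% were called higher (0.838% in either direction). Of the 14, 6 had lower means, against 48.6% of all probe sets, and 8 had higher means, and over the brightest probe set of each gene the median difference was -0.00028, against -0.01 over all genes. Whether the difference of Vnn1 differs from those of the other genes was not tested. In bulk liver RNA, fewer cells of a type and less RNA per cell cannot be told apart.

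**Figure D1:**
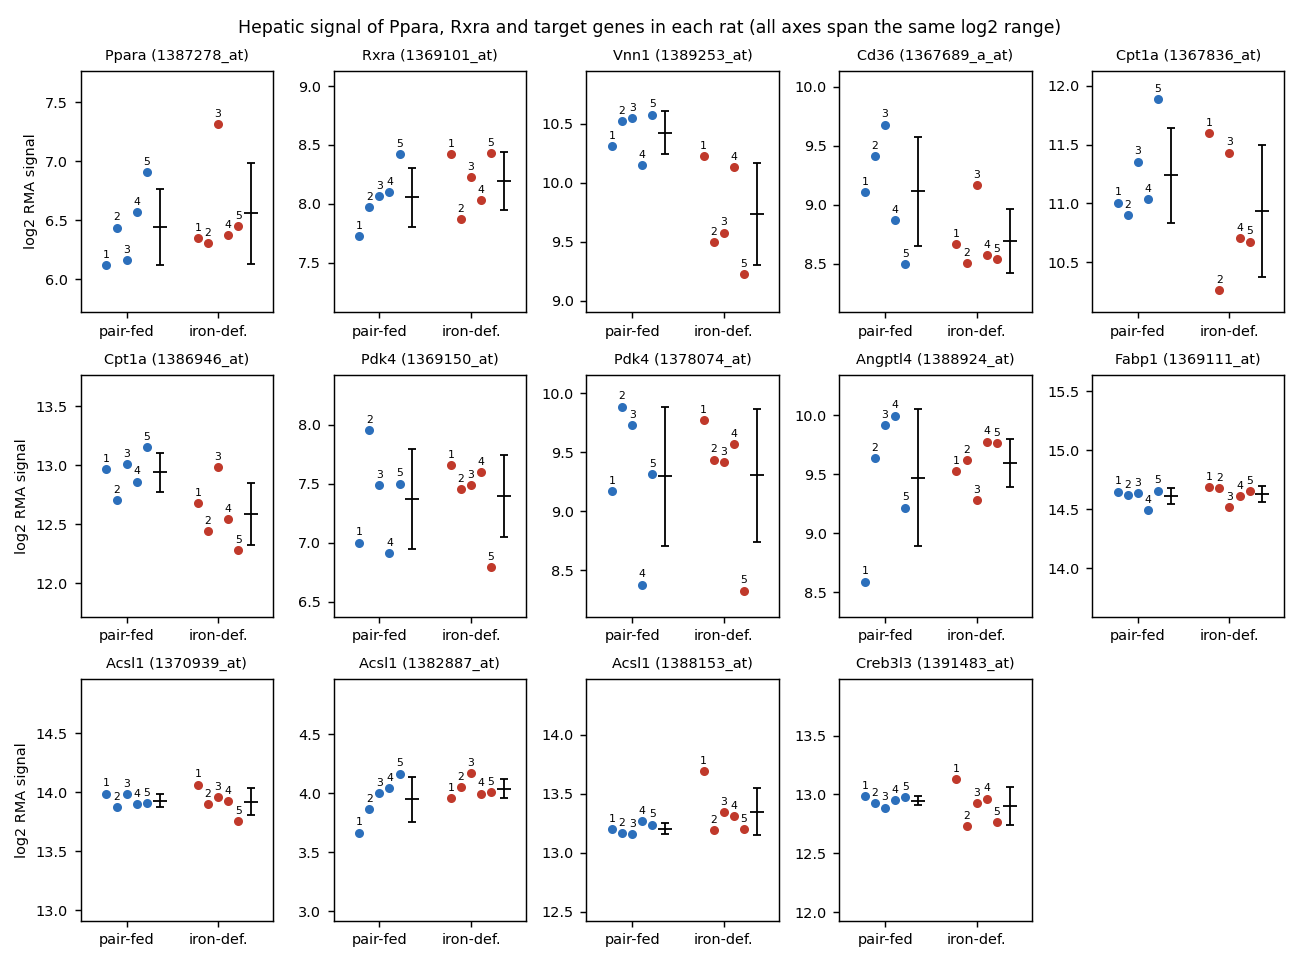
Log2 RMA signal of the 14 probe sets in each of the 10 rats, with the replicate number beside each point. Black bars are mean ± SD (n = 5), and all vertical axes span the same log2 range. Of the 5 iron-deficient rats, 4 lie below every pair-fed rat for Vnn1, while the points of Fabp1 lie close together in both groups.

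**Figure D2:**
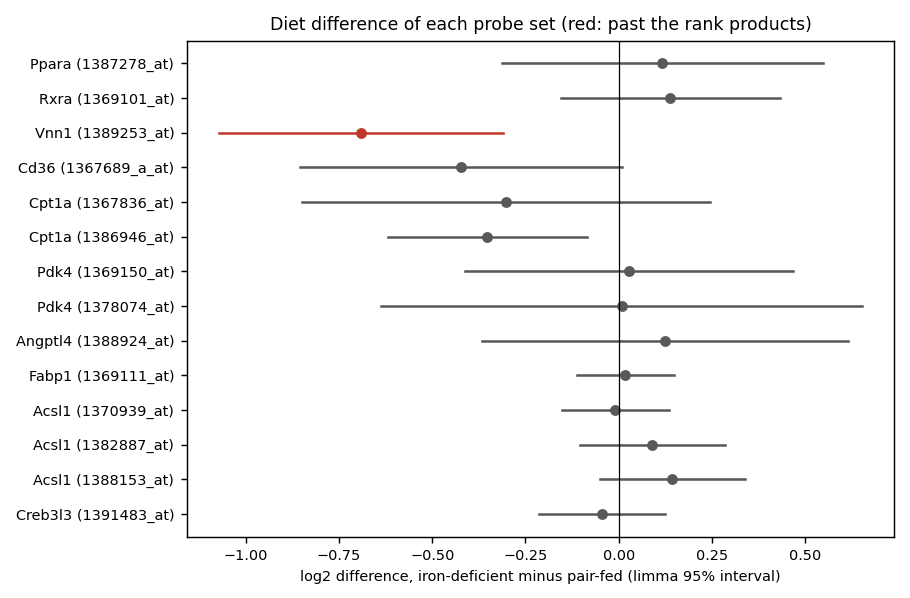
Log2 difference (iron-deficient minus pair-fed) of each probe set with its 95% interval from limma. Vnn1, in red, passed the rank products, and the intervals of Vnn1 and of 1 Cpt1a probe set lie below 0.

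The receptor gene Ppara had log2 signals of 6.35, 6.30, 7.32, 6.37 and 6.45 in iron-deficient rats 1 to 5 and of 6.12, 6.44, 6.16, 6.57 and 6.91 in pair-fed rats 1 to 5. The groups overlapped, and iron-deficient rat 3 was the highest of all 10. The difference was 0.12 (SE 0.198, 95% interval -0.31 to 0.55; exact permutation test, 2-sided, p = 0.651). Without iron-deficient rat 3 it was -0.07, so that the sign of the Ppara difference rested on that animal. Rxra, which forms the heterodimer with PPAR-alpha, lay between 7.87 and 8.43 in the iron-deficient rats (median 8.23) and between 7.73 and 8.42 in the pair-fed rats (median 8.07). Its difference was 0.14 (SE 0.135, 95% interval -0.16 to 0.43; exact permutation test, 2-sided, p = 0.405), and the ranges overlapped over nearly their whole length.

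Of the other partner receptors and coregulators on the list used, 17 of 19 had a probe set, and none passed in either direction (10 with higher and 7 with lower means, median difference 0.03). Over all probe sets, 0.838% passed the rank products in either direction. In limma, 0 of the 17 had an unadjusted p under 0.05, against 6.98% of all probe sets in either direction. The other receptors of the family, Ppard and Pparg, were at -0.01 (SE 0.083) and -0.02 (SE 0.145), and the other retinoid X receptors Rxrb and Rxrg were at 0.04 (SE 0.066) and -0.04 (SE 0.089). The coregulator Ppargc1a, named after its values were seen, had the largest difference among the 17, at 0.31 (SE 0.143). Its other probe sets were at 0.02 and 0.38, and none of its probe sets passed.

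Vnn1 was at 10.23, 9.50, 9.58, 10.14 and 9.22 in iron-deficient rats 1 to 5 and at 10.32, 10.52, 10.55, 10.15 and 10.58 in pair-fed rats 1 to 5. Of the 5 iron-deficient rats, 4 lay below every pair-fed rat, and rat 1, at 10.23, lay above the lowest pair-fed rat. Rats 2, 3 and 5 were well below the pair-fed range, whereas rats 1 and 4 were close to its lower end. Vnn1 fell by 0.69 on the log2 scale (SE 0.175, 95% interval -1.07 to -0.31), to 0.620 of the pair-fed level, with a rank products FDR of 0.00238. The exact permutation test, 2-sided, gave p = 0.0159, where 0.00794 is the smallest that 5 against 5 allow. limma, which weighs the difference by the spread between rats, gave an unadjusted p of 0.00185 and an adjusted p = 0.601. Vnn1 passed the rank products in all 10 settings that leave out 1 array, with differences of -0.81 to -0.56, and missed the threshold when ranks were summed instead of multiplied (FDR 0.0761).

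Cd36 was at 8.67, 8.51, 9.16, 8.57 and 8.54 in iron-deficient rats 1 to 5 and at 9.11, 9.41, 9.68, 8.87 and 8.49 in pair-fed rats 1 to 5. Iron-deficient rats other than rat 3 were close together, at the level of the lowest pair-fed rat, and the groups overlapped. The difference was -0.42 (SE 0.198, 95% interval -0.85 to 0.01; exact permutation test, 2-sided, p = 0.127). With an FDR of 0.0515, Cd36 stood just outside the threshold, at place 176 in the order of lower probe sets of which 172 passed, and limma gave an adjusted p = 0.716. It passed without iron-deficient rat 3, at -0.54 (FDR 0.0188), and without pair-fed rat 5, at -0.58 (FDR 0.0259), and without pair-fed rat 3 the difference was -0.28. A further probe set that the annotation shares between Cd36 and another gene was not used.

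Cd36 is also made by macrophages, endothelial cells and adipocytes. Of the markers listed for Kupffer cells and macrophages 6 were measured and 0 passed, and their summed signal on the linear scale ranged from 4321 to 5992 in the iron-deficient rats and from 4709 to 7991 in the pair-fed rats. Of the endothelial markers 6 were measured and 0 passed, with sums from 8553 to 8939 and from 8019 to 8800. Of the adipocyte markers 7 were measured and 0 passed, with sums from 678 to 860 and from 749 to 917. Over all probe sets, 0.838% passed in either direction. The part of macrophages, endothelial cells and adipocytes in the Cd36 values was not tested.

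Cpt1a had lower means at both probe sets. At the brighter one it was at 12.68, 12.44, 12.99, 12.55 and 12.28 in iron-deficient rats 1 to 5 and at 12.97, 12.70, 13.01, 12.86 and 13.15 in pair-fed rats 1 to 5. Of the 5 iron-deficient rats, 4 lay below all pair-fed rats, and rat 3 lay within the pair-fed range. The difference was -0.35 (SE 0.123, 95% interval -0.62 to -0.08), with an FDR of 0.149 in the rank products, an adjusted p = 0.632 in limma and p = 0.0397 in the exact permutation test, 2-sided. At the other probe set the values ran from 10.27 to 11.60 (median 10.70) in the iron-deficient group and from 10.90 to 11.89 (median 11.04) in the other, and the means differed by -0.30 (SE 0.252, FDR 0.144). There 3 iron-deficient rats lay below all pair-fed rats, and rats 1 and 3 lay within the pair-fed range. Both probe sets passed without iron-deficient rat 3, at -0.45 (FDR 0.0451) and -0.43 (FDR 0.0451), and the second also without iron-deficient rat 1, at -0.47 (FDR 0.0327). The second was at -0.13 without iron-deficient rat 2 and at -0.14 without pair-fed rat 5.

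**Figure D3:**
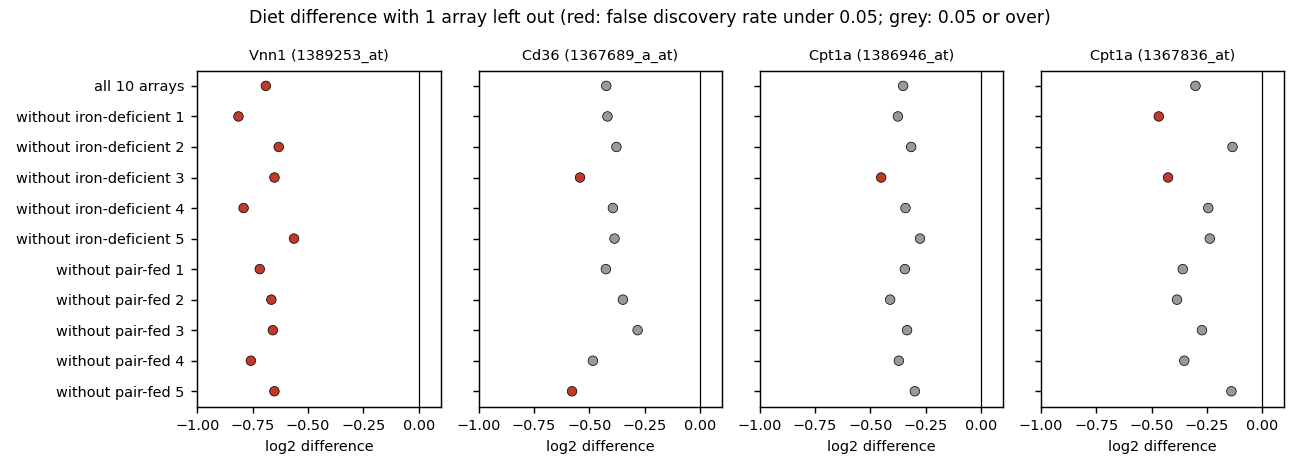
Log2 difference (iron-deficient minus pair-fed) of Vnn1, Cd36 and both Cpt1a probe sets with all arrays and without each array in turn. Red points have a rank products FDR under 0.05; Vnn1 is red in every setting, and Cd36 and Cpt1a in 1 or 2 settings each.

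The number of lower probe sets among the 14 was therefore 4 without iron-deficient rat 3 (Vnn1, Cd36 and both of Cpt1a), 2 without iron-deficient rat 1 and 2 without pair-fed rat 5, and 1 without any of the others. limma called 0 of the 14 at an adjusted p under 0.05, as it did for all probe sets. At an unadjusted p under 0.05 it had 2 of the 14, Vnn1 and the brighter Cpt1a probe set, both lower, against 3.77% of all probe sets on the lower side and 6.98% in either direction. None of the 14 had groups without overlap, which 1.29% of all probe sets had.

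Pdk4, the kinase that spares glucose in fasting, varied more between rats than between diets. At its brighter probe set it ranged from 8.33 to 9.77 in the iron-deficient group (median 9.44) and from 8.38 to 9.89 in the pair-fed group (median 9.32). Iron-deficient rat 5 and pair-fed rat 4 were low at both probe sets, and the other rats of each group were higher at the brighter one. The differences were 0.01 (SE 0.297, 95% interval -0.64 to 0.65) and 0.03 (SE 0.203, 95% interval -0.41 to 0.47), with p = 0.984 and p = 0.921 in the exact permutation test, 2-sided. Without iron-deficient rat 5 the brighter probe set was at 0.25, and without pair-fed rat 4 it was at -0.22. The other kinases of the family, Pdk1, Pdk2 and Pdk3, were at 0.06, 0.08 and -0.14 and did not pass.

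Angptl4 was at 9.53, 9.62, 9.28, 9.78 and 9.77 in iron-deficient rats 1 to 5 and at 8.59, 9.64, 9.91, 9.997 and 9.22 in pair-fed rats 1 to 5. All iron-deficient rats lay within the pair-fed range, in which rat 1 was the lowest at 8.59. The difference was 0.12 (SE 0.226, 95% interval -0.37 to 0.61; exact permutation test, 2-sided, p = 0.714), and without pair-fed rat 1 it was -0.10. Of its relatives, Angptl8, which acts on lipoprotein lipase in the fed state, was at 0.32 (SE 0.173) and Angptl6 at -0.12 (SE 0.115), and neither passed.

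Fabp1 and the brightest Acsl1 probe set differed little between rats. Their signals were above those of 99.9% and 99.8% of all probe sets, and whether so high a signal narrows their differences was not tested. Fabp1 lay between 14.52 and 14.69 in the iron-deficient rats (median 14.65) and between 14.49 and 14.66 in the pair-fed rats (median 14.64), a difference of 0.02 (SE 0.0603, 95% interval -0.11 to 0.15). The brightest Acsl1 probe set lay between 13.76 and 14.06 against 13.87 and 13.99, a difference of -0.01 (SE 0.0663, 95% interval -0.15 to 0.14). A second one differed by 0.14 (SE 0.0897, 95% interval -0.05 to 0.34), with 3 iron-deficient rats above all pair-fed rats and rat 1 the highest at 13.69. The third, at 3.67 to 4.17 over all rats and brighter than only 13.6% of all probe sets, differed by 0.09.

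Other members of these families were measured as well. Fabp5, a fatty acid binding protein with wide tissue expression, was up-regulated by 0.70 (SE 0.291, FDR 0.00969; adjusted p = 0.673 in limma), while Fabp2, Fabp4 and Fabp7 were at 0.02, 0.13 and -0.05 and did not pass. The acyl-CoA synthetases Acsl3, Acsl4 and Acsl5 were at 0.40, 0.25 and 0.24 and Acsl6 at 0.02, and they did not pass. Cpt1b, Cpt1c and Cpt2 were at 0.08, -0.01 and -0.22, and the scavenger receptors Scarb1 and Scarb2, relatives of Cd36, at 0.14 and -0.05, again without passing.

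Creb3l3 lay between 12.73 and 13.13 in the iron-deficient rats (median 12.92) and between 12.89 and 12.99 in the pair-fed rats (median 12.95). The pair-fed values lay within the iron-deficient range, and the difference was -0.04 (SE 0.0775, 95% interval -0.21 to 0.12; exact permutation test, 2-sided, p = 0.563). Of its relatives, Creb3, Creb3l1, Creb3l2 and Creb3l4 were at -0.18, 0.23, -0.37 and 0.03 and did not pass. limma gave the first 3 unadjusted p-values of 0.0145, 0.0193 and 0.0183 and adjusted p-values of 0.634, 0.662 and 0.662. Of 36 measured family genes, which include the genes examined here, 4 were lower and 3 higher at an unadjusted p under 0.05. Over all probe sets, 3.77% were lower and 6.98% differed in either direction.

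**Figure D4:**
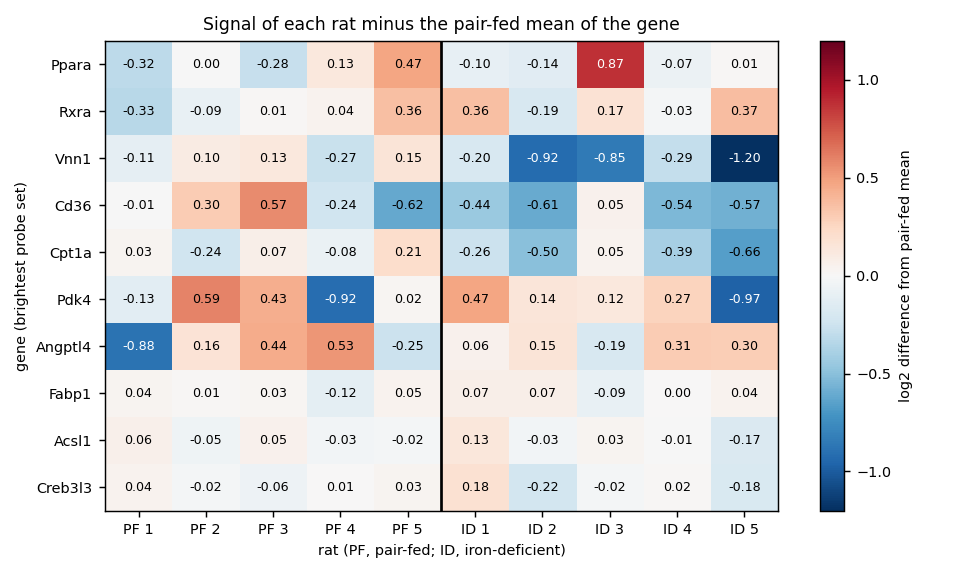
Log2 signal of each of the 10 rats minus the pair-fed mean of the gene, for the brightest probe set of each gene; blue is below and red above the pair-fed mean. Iron-deficient rats 2, 3 and 5 are low for Vnn1, iron-deficient rat 5 is low for Vnn1, Cpt1a and Pdk4, and iron-deficient rat 3 is high for Ppara.

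The iron-deficient rats did not share 1 profile of these genes. Rat 5 was the lowest of all 10 rats in 5 of the 14 probe sets, namely Vnn1, the brighter Cpt1a, both of Pdk4 and the brightest Acsl1, and the highest for Rxra. Rat 1 was the highest in 4, namely Fabp1, Creb3l3 and the brighter pair of Acsl1 probe sets. This array had the lowest mean correlation with the other arrays over all probe sets (0.9915, against 0.9935 to 0.9941 for the others). It also had the largest signal difference between the 3' and 5' control probe sets, given below. In the pair-fed group, rat 1 was the lowest in 4 probe sets, among them Ppara, Rxra and Angptl4, and rat 5 was the highest for Vnn1 and both Cpt1a probe sets while it was the lowest for Cd36.

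No relation of the other genes to the Ppara signal passed the test over the 10 rats, a number that leaves wide room for relations that were not detected. Over the 10 rats, Pearson's r of Ppara (brightest probe sets) with the other 9 genes ranged from -0.55 for Fabp1 to 0.48 for Rxra, and the lowest adjusted p over these 9 relations was 0.712 (permutation test). Spearman's rho ranged from -0.45 for Acsl1 to 0.65 for Rxra, with a lowest adjusted p = 0.442 (permutation test, unadjusted p = 0.0491 for Rxra). For Vnn1, r was -0.22 (permutation p = 0.563) and rho was -0.15 (permutation p = 0.681). Without iron-deficient rat 3 and pair-fed rat 5, which were farthest from the median of Ppara, r was -0.29 for Vnn1, 0.47 for Rxra and -0.59 for Fabp1, while it turned from 0.35 to -0.44 for Cpt1a and from -0.10 to 0.62 for Angptl4. With each diet's mean subtracted, so that differences between the diets do not enter, r was 0.62 for Cpt1a, -0.59 for Fabp1, 0.46 for Rxra and -0.15 for Vnn1, given without a test. The relation of Cpt1a to Ppara thus changed sign with the rats included.

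Among 14216 other genes, those with the highest Pearson's r to Vnn1 over the 10 rats were Tomm70 (0.95), Hacl1 (0.94) and Ddx24 (0.94), and those with the highest r to Ppara were Vamp7 (0.93), Rasip1 (0.90) and Nab2 (0.90). These values describe likeness over the same 10 arrays, chosen as the highest of many, and Hacl1 differs between the diets as Vnn1 does.

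The same test was read for 51 measured genes of a list of 58 other PPAR-alpha targets. The test called 9 lower and 0 higher and left 42 uncalled, with lower means in 43 and a median difference of -0.10. Calls among them were thus made for 17.6%, where 0.554% of all probe sets were called lower. Several of these genes were known to be lower in these arrays when the list was written, so the count is not independent evidence. Retsat, which saturates retinol, fell by 0.69 (SE 0.315, FDR 0.00689), Hacl1, of peroxisomal alpha-oxidation, by 0.58 (SE 0.151, FDR 0.00688), the thioesterase Acot4 by 0.56 (SE 0.203, FDR 0.0135) and Ech1, an auxiliary enzyme of beta-oxidation, by 0.55 (SE 0.201, FDR 0.0202). Eci1, Crat, Cyp4a3, Acot3 and Fgf21 were the other 5, named here to complete the count. Of these, Fgf21 differed by -0.37 with a larger SE of 0.480, and a second probe set of Eci1 was at 0.06 and uncalled. In limma, 0 of the 51 passed at an adjusted p under 0.05, and 13 had lower and 1 had higher values at an unadjusted p under 0.05, where 3.77% of all probe sets were lower and 6.98% differed in either direction.

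**Figure D5:**
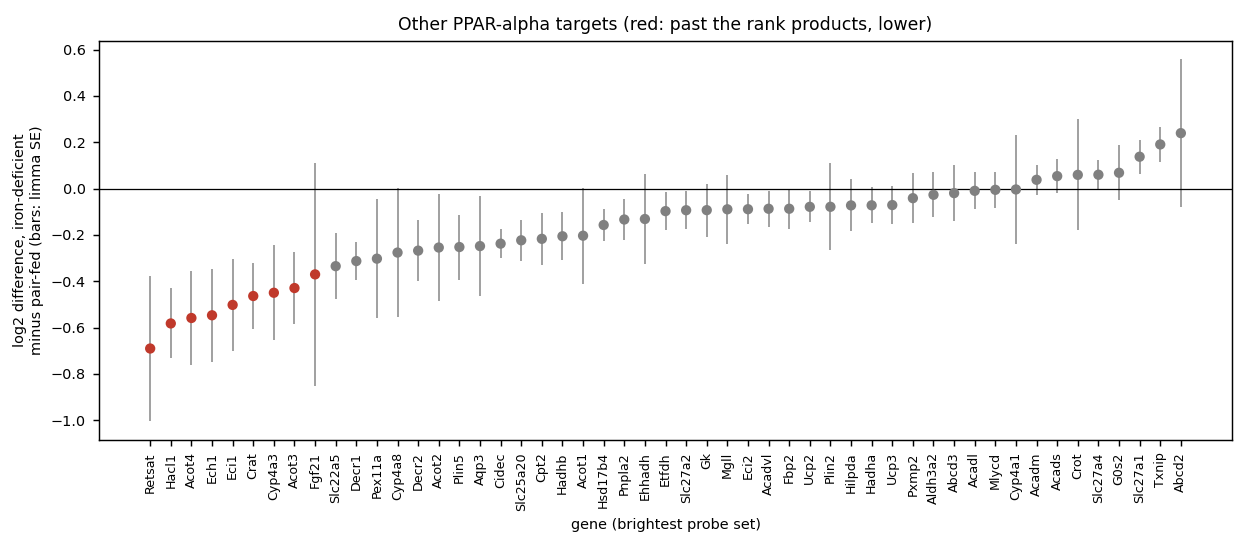
Log2 difference (iron-deficient minus pair-fed) of 51 other PPAR-alpha targets, each by its brightest probe set, with the limma SE as bars. The 9 genes in red, from Retsat at -0.69 to Fgf21 at -0.37, passed the rank products; the remaining 42 are grey.

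Decr1, a reductase needed for unsaturated fatty acids, and Cidec, a lipid droplet protein, did not pass the rank products but had every iron-deficient rat below every pair-fed rat, with differences of -0.31 (SE 0.0808) and -0.24 (SE 0.0621). Groups without overlap were found in 2 of the 51 genes, against 1.29% of all probe sets. Both genes were chosen for this after their values were seen. The count of 9 was 1 without pair-fed rat 5, 2 without iron-deficient rat 5 or without pair-fed rat 3, and 4 without iron-deficient rat 2, pair-fed rat 2 or pair-fed rat 4.

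Genes of the feeding state and markers of other cells were read beside these results. Of 12 measured genes that respond to feeding or fasting, Igfbp1 and Sds, both raised in fasting, were up-regulated, by 0.62 (SE 0.443) and 0.30 (SE 0.450), where 0.283% of all probe sets were called higher, and the other 10 were uncalled. limma gave these 2 genes unadjusted p-values of 0.186 and 0.521. Higher means were found in 10 of the 12, among them genes raised by feeding. Pklr, the pyruvate kinase of the liver, was at 0.48 (SE 0.133, FDR 0.0511, limma unadjusted p = 0.00338), and the lipogenic genes Fasn, Srebf1 and Acly were at 0.25, 0.25 and 0.22, all named after their values were seen. Red cell markers were lower, 5 of 6 past the test, where 0.554% of all probe sets were called lower. Their summed linear signals ran from 9057 to 14573 in the iron-deficient rats against 13406 to 20703 in the pair-fed rats. Hepatocyte markers were measured for 6 genes, of which 0 passed, with sums from 161367 to 166400 against 159827 to 163380, and stellate cell markers for 6, of which 0 passed, with sums from 6373 to 9642 against 5461 to 6472. Of 5 T and NK cell markers 0 passed, with sums from 160 to 191 and from 172 to 187. The log2 signal of the 3' minus the 5' control probe set, which rises as RNA degrades, was -0.03 to 0.36 in the iron-deficient rats and -0.05 to 0.09 in the pair-fed rats for Gapdh, and 1.16 to 1.74 against 1.08 to 1.33 for beta-actin (exact permutation test, 2-sided, p = 0.341 and p = 0.230). Iron-deficient rat 1 gave the upper end for both controls, and its array also had the lowest mean correlation with the others. The part of feeding state, other cells and RNA quality in the values of the PPAR-alpha genes was not tested.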

How the data were processed

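Liver RNA of 10 rats (5 iron-deficient, 5 pair-fed) was measured on 1 array each. The deposited log2 values are robust multiarray average (RMA) signals that the authors computed from the CEL files in R and Bioconductor, and all 10 columns were used as deposited. Array medians ranged from 6.19 to 6.22. After 57 control probe sets were left out, 31042 were tested, of which the platform annotation pairs 20826 with 1 gene, 436 with several and 9780 with none. Symbols were updated by Entrez ID in a RefSeq table of GRCr8, used for names and promoters. Brightness served to choose 1 probe set per gene and to tell probe sets of a gene apart, not to compare transcript levels, and precision is limited by the number of arrays.

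Rank products ranked the 25 differences that pair each iron-deficient array with each pair-fed one, with 100 permutations of the values within arrays (scipy 1.17.1, pandas 2.3.3 and numpy 2.4.6 under Python 3.11.15). An FDR under 0.05 passed. Differences, SE, 95% intervals and adjusted p-values (Benjamini-Hochberg over all probe sets) came from limma 3.58.1 in R 4.3.3. Single differences were compared by the exact permutation test over 252 splits, and correlations with 100000 resamples. Rank products and limma were also run on simulated data with known changes, with noise drawn independently for each probe set and array. Only the share of known changes that was called was recorded, so the rate of false calls was not measured. Figures were drawn with matplotlib 3.10.9. All probe sets of the 10 genes are named, with values for up to 4 called genes per list (others are named outside this rule, after their values were seen), family members and the 3 genes nearest to Ppara and Vnn1. Other genes are represented by their brightest probe set. Members and lists were chosen with earlier results of these data known.

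Alternatives were limma, the rank sum, leaving out dim probe sets, centring of array medians, the replicate number as a block, averaging all probe sets of a gene, another random seed and leaving out each array. Replicate numbers were not taken to pair the rats.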

Additional observations from a re-analysis of the deposited data

Results flagged for a closer look

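Of the 28 groups of 5 values (14 probe sets, 2 diets), 5 held a rat that stood apart from the other 4 by Dixon's criterion, which chance flags in about 1 in 20 groups. Iron-deficient rat 3 stood apart for Ppara at 7.32 and for Cd36 at 9.16, in both cases as the highest of its group. Iron-deficient rat 5 stood apart as the lowest at both probe sets of Pdk4, at 6.79 and 8.33. The Pdk4 probe sets correlated at r = 0.92 over the 10 rats. The 28 groups come from the same rats and are not independent, so the count of 5 cannot be set directly against the rate of 1 in 20. Pair-fed rat 4 was the lowest for Fabp1 at 14.49, where the group spans a narrow range.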

How the results depend on the processing

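The count of 1 lower probe set among the 14, Vnn1, was 1 with dim probe sets left out and with another random seed, which was chosen after seeing the data. It was also 1 with array medians centred, which shifts all differences between a pair of arrays alike and so cannot change the rank products. It was 0 with the rank sum and 0 with limma's adjusted p, and 1 to 4 when 1 array was left out. The count of 9 other targets was 9 with array medians centred, again by construction, and 9 with another seed. It was 5 with dim probe sets left out, 0 with the rank sum, 0 with limma's adjusted p and 1 to 10 when 1 array was left out. No probe set of the 14 was called higher under any setting. With the replicate number as a block, the counts were 1 and 6 in the rank products and 0 and 0 in limma. The median over the 10 genes was -0.00028, which a block cannot change when each number holds 1 array per diet. Differences from the group mean of same-numbered arrays had correlations of -0.04 to 0.09, and 1 of 5 iron-deficient arrays correlated best with its own number. These values gave no sign of pairing, but they cannot show that same-numbered rats were unpaired. The median was -0.07 to 0.02 when 1 array was left out, -0.01 with medians centred and 0.02 when all probe sets of a gene were averaged. The causes of these changes were not tested.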
